A study of Cavia porcellus with 9 samples.

Results

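The genes examined here encode 9 proteins of the rod phototransduction cascade in the guinea pig (Cavia porcellus): Gnat1, Pde6a, Pde6b, Pde6g, Cnga1, Cngb1, Sag, Grk1 and Rcvrn. They were chosen by name from a table of 19962 genes. For 8 of the 9 the table carries the symbol itself. Cngb1 is listed under its RefSeq locus number, LOC100714217, which the RefSeq names table of assembly mCavPor4.1 pairs with that symbol. All 9 are annotated there as protein-coding.

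The animals were male tri-colour guinea pigs of the Dunkin-Hartley strain, 45 in the whole study and 2 weeks old on arrival. They were kept under green, blue or white light for 8 weeks, on a cycle of 12 h light and 12 h dark, and were 12 weeks old when the retina was taken. Each light group has 3 libraries of retinal RNA, but only 2 animal labels stand behind each group. In green, libraries 1 and 2 are both labelled as the right eye (od) of animal 11. In blue, libraries 2 and 3 are the right and left eye of animal 32. In white, libraries 1 and 2 are the right and left eye of animal 6. The libraries of a group are therefore not 3 independent animals, and p-values measure a spread that is partly between eyes or preparations of the same animal. The series title names wavelength defocus and refractive development, so each coloured light is set against white and green against blue.

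In a rod, absorbed light switches on the G protein transducin. Transducin relieves the inhibition of the phosphodiesterase PDE6, which then breaks down cyclic GMP and lets the cyclic-nucleotide-gated channels of the outer segment close. The response ends through a receptor kinase and arrestin, which together stop the activation of transducin, while recoverin restrains the kinase when calcium is high. Rods carry vision in dim light and saturate in daylight, whereas cones use a parallel cascade, with separate genes for several but not all of its proteins.

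Library totals in the deposited table lay between 62155041 and 74979806 counts. Together the 9 genes took 3.4% to 4.15% of a library's counts. The rod regulators Nrl and Nr2e3 were present in every library, as the retina label implies. The 13 markers of the pigment epithelium, the layer behind the retina, summed to 553 to 1088 CPM (counts scaled to library size by the TMM method) in green, 872 to 1138 CPM in blue and 615 to 1188 CPM in white. Of these, Rpe65 ranged from 7.76 to 144 CPM, and only Dct (1 library) and Tyrp1 (2 libraries) had a library at 0. Rlbp1 (271.6 to 400.7 CPM) and Rgr (177.1 to 366.8 CPM) made up most of each sum. The sum therefore varied less between libraries than Rpe65 or Pmel (3.89 to 95.1 CPM) did. In green library 3, for example, Rpe65 stood at 7.76 and Pmel at 3.89 CPM, but Rlbp1 at 300.8 and Rgr at 178.2 CPM. Which cells the Rlbp1 and Rgr transcripts came from was not tested, so the sum may not measure the pigment epithelium alone. Lens crystallins and other lens markers (11 genes) summed to 78.4 to 98.4 CPM in green, 51.6 to 91.6 CPM in blue and 30.3 to 73.8 CPM in white. At an unadjusted p of 0.05 stood 8 of 11 between green and white (5.81% of all genes) and 5 of 11 between blue and white (4.45%). In both comparisons 0 were called, where 0.00646% of all genes were. Müller glia markers were higher in blue than in white for 8 of 8 tested (51.5% of all genes were), summing to 10819.6 to 12216 CPM in blue and 9695 to 11527 CPM in white. The part of these cell types in the differences given here was not tested, apart from the pigment epithelium covariate. In whole retina a lower level can mean fewer of the cells that express a gene or less RNA per cell, which cannot be told apart.

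**Figure D1:**
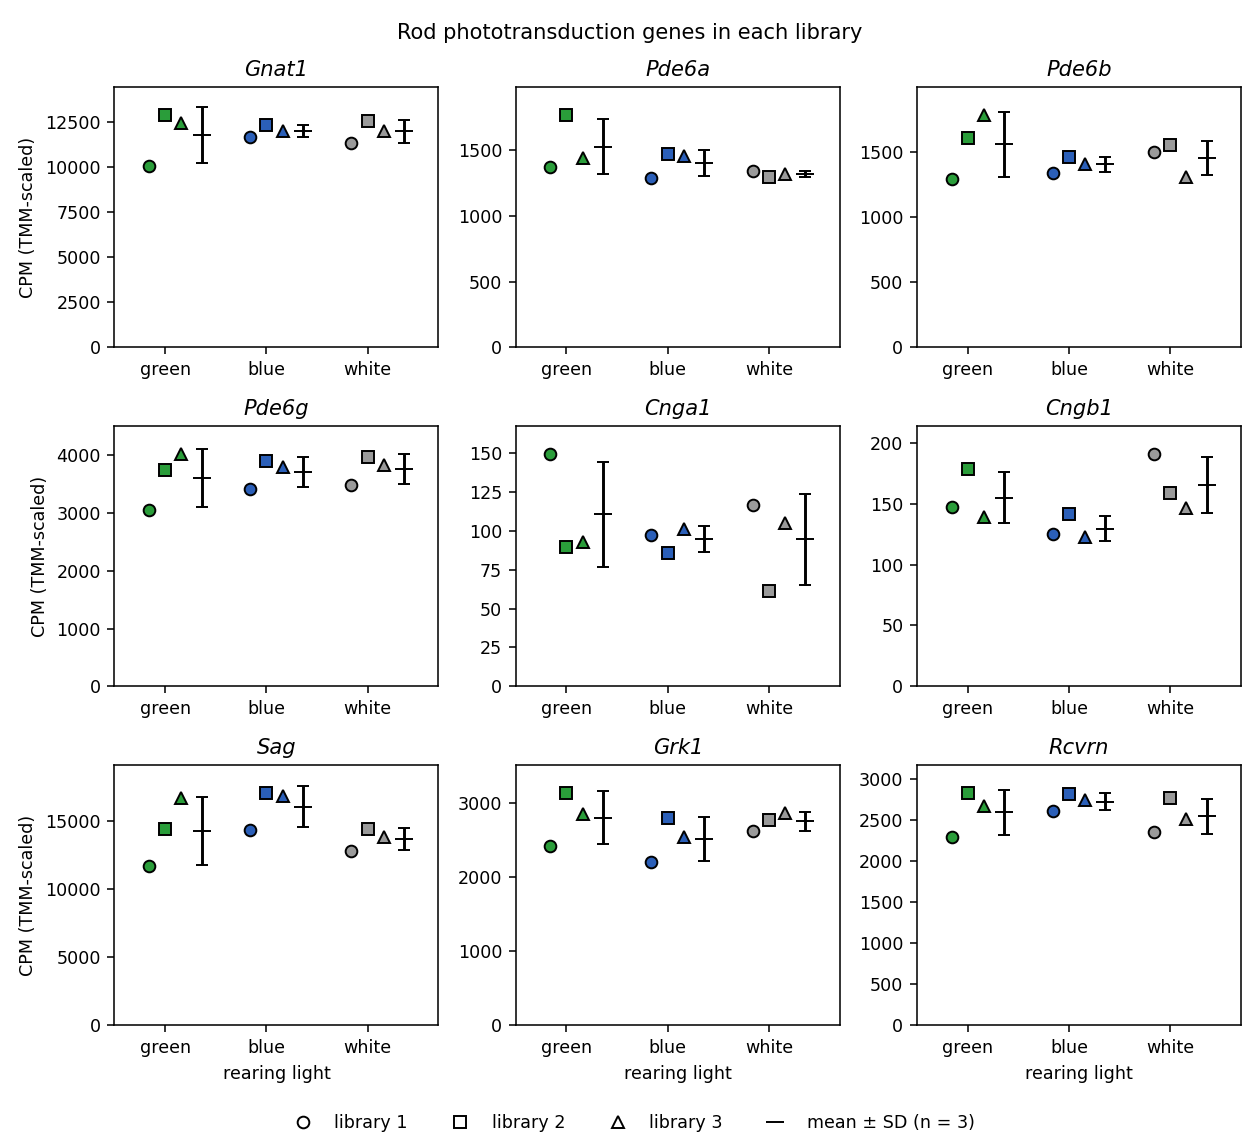
Level of each of the 9 genes (CPM, TMM-scaled, axis from 0) in the 3 green, 3 blue and 3 white libraries; circles, squares and triangles are libraries 1, 2 and 3, and the bars give mean ± SD (n = 3). The libraries of the 3 lights overlap in most panels; Pde6a in green lies above white, and Cngb1 in blue lies below white.

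The 9 genes did not separate the lights at the threshold used. In edgeR's quasi-likelihood test on all 9 libraries, with Benjamini-Hochberg adjustment over 15469 genes, 0 of 9 passed an adjusted p of 0.05 between green and white, where 0.00646% of all genes did. Between blue and white 0 of 9 passed (0.00646% of all genes), between green and blue 0 of 9 (0% of all genes), and when all 3 lights were tested jointly 0 of 9 (0.00646% of all genes). The smallest adjusted p among the 9 was 0.852, 0.986, 0.699 and 0.816 in these 4 tests. At an unadjusted p of 0.05 stood 1 of 9 between green and white (5.81% of all genes), 1 of 9 between blue and white (4.45%), 0 of 9 between green and blue (7.18%) and 1 of 9 in the joint test (5.94%). DESeq2's adjusted p also passed 0 of 9 in each of the 4 tests, where it called 0.155%, 0.181%, 0.265% and 0.531% of all genes. At an unadjusted p of 0.05 DESeq2 had 0 of 9 between green and white (5.99% of all genes), 1 of 9 between blue and white (4.7%), 1 of 9 between green and blue (7.62%) and 1 of 9 jointly (7.1%). Libraries of the lights did not overlap for 1 of 9 between green and white (10.1% of all genes), 1 of 9 between blue and white (9.9%) and 0 of 9 between green and blue (14.2%). By direction, 1 was higher and 0 lower in green than in white (5.34% and 4.74% of all genes), 0 higher and 1 lower in blue than in white (5.76% and 4.14%), and 0 and 0 in green than in blue (7.23% and 6.94%).

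The intervals give the range of differences that the model allows, and the model treats the 9 libraries as independent. Since libraries of a group share animal labels, the intervals may be too narrow for differences between animals. Apart from Cnga1, the 95% intervals of the log2 difference between green and white all lay between -0.36 and 0.42. They reached -0.62 (Cngb1) and 0.49 (Sag) between blue and white, and -0.43 (Sag) and 0.52 (Cngb1) between green and blue. Those of Cnga1 reached 0.74 between green and either other light. Between green and white 6 of 9 genes were higher (52.4% of all genes were) and 3 lower, with a median log2 difference of 0.029, against 0.009 over all genes tested. Between blue and white 5 were higher (51.5% of all genes) and 4 lower, with a median of 0.003 against 0.005 over all genes. Between green and blue 5 were higher (49.4% of all genes) and 4 lower, with a median of 0.122 against -0.003.

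**Figure D2:**
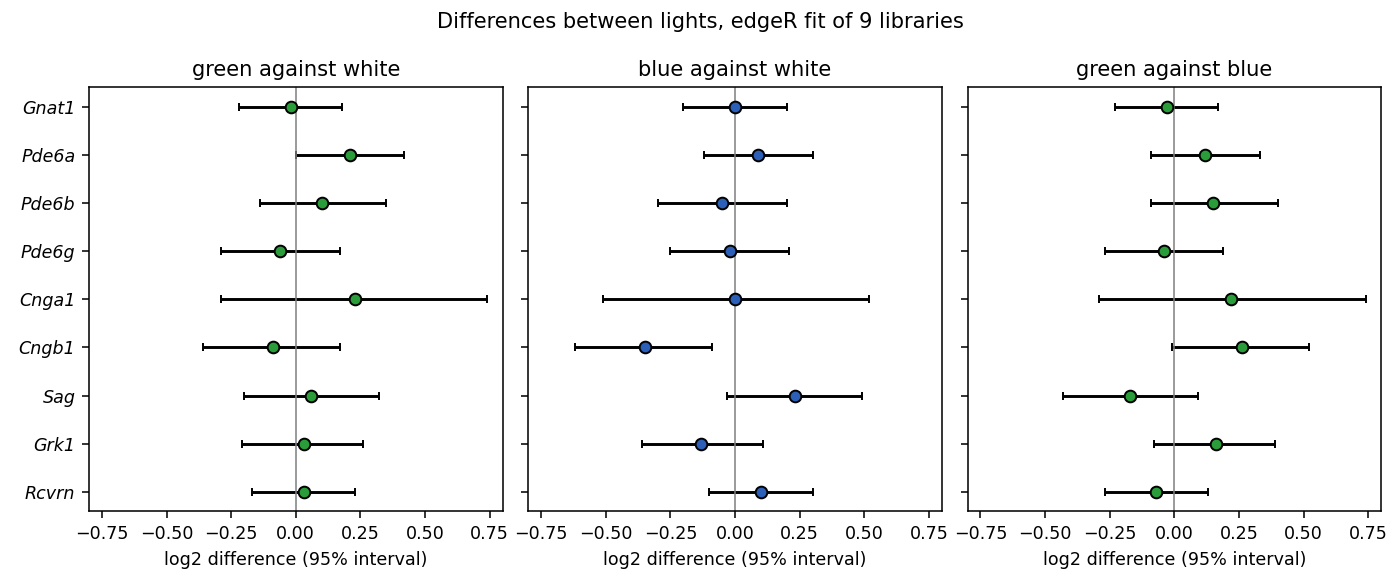
Log2 difference of each gene with its 95% interval for green against white (left), blue against white (middle) and green against blue (right), from the edgeR fit of 9 libraries; positive values are higher in the first-named light. The interval of Cngb1 between blue and white lies below 0, that of Pde6a between green and white starts at about 0, the others cross 0, and Cnga1 has the widest interval in each panel.

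Gnat1 encodes the alpha subunit of rod transducin, the G protein that switches on PDE6. It stood at 10027, 12872 and 12412.5 CPM in green libraries 1 to 3, at 11658, 12334 and 11977 CPM in blue and at 11325, 12563.5 and 12007 CPM in white. The 3 lights overlapped, and the lowest value was that of green library 1. The group means were 11770.3 ± 1528 CPM in green, 11989 ± 338 CPM in blue and, in white, 11965 ± 620.2 CPM (SD, n = 3 each). Log2 differences were -0.02 ± 0.09 (SE) between green and white and 0.00 ± 0.09 between blue and white. The 95% intervals ran from -0.22 to 0.18 and from -0.20 to 0.20.

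The PDE6 holoenzyme of rods joins catalytic subunits from Pde6a and Pde6b with inhibitory gamma subunits from Pde6g. Pde6a stood at 1374, 1768 and 1442 CPM in green, at 1289, 1469.5 and 1455 CPM in blue and at 1342, 1298 and 1319 CPM in white. Each green library was above each white one, a separation in that direction that 5.34% of all genes showed. The blue libraries straddled the white ones. The log2 difference between green and white was 0.21 ± 0.10 (SE), with an adjusted p of 0.852 in edgeR, where the unadjusted p was 0.04996. It came to 0.094 without green library 2, which held the highest level of Pde6a.

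Pde6b stood at 1289, 1608 and 1783 CPM in green, at 1341, 1461.5 and 1407 CPM in blue and at 1498, 1554 and 1306 CPM in white. The green libraries spanned the range of all the others. Log2 differences were 0.10 ± 0.11 (SE) between green and white, -0.05 ± 0.11 between blue and white and 0.15 ± 0.11 between green and blue. Pde6g stood at 3055, 3746 and 4018 CPM in green, at 3418, 3905 and 3798 CPM in blue and at 3476, 3974 and 3826 CPM in white. Here too the green libraries held both the lowest and the highest value, and the log2 differences lay between -0.06 and -0.02 in the 3 comparisons.

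The balance of the catalytic subunits was read as the Pde6a to Pde6b count ratio within a library, which needs no scaling between libraries. On the log2 scale it was 0.09, 0.14 and -0.31 under green, -0.06, 0.01 and 0.05 under blue and -0.16, -0.26 and 0.01 under white light. The lights overlapped. The ratio differed by 0.11 between green and white (exact permutation test, two-sided, p = 0.6) and by 0.13 between blue and white (exact permutation p = 0.3). With 3 libraries against 3 this exact permutation test cannot go below p = 0.1, and over the 9 ratio tests made the smallest adjusted p was 0.9.

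Cnga1 and Cngb1 encode the subunits of the rod channel, through which sodium and calcium enter the outer segment in the dark. Cngb1 stood at 147.5, 179 and 139 CPM in green, at 125, 141.5 and 122 CPM in blue and at 191, 159 and 147 CPM in white. Each blue library was below each white one, a separation in that direction that 4.14% of all genes showed, and the green libraries overlapped both. The means were 130 ± 10.3 CPM in blue against 165.5 ± 22.8 CPM in white (SD, n = 3 each). The log2 difference was -0.35 ± 0.12 (SE), a fold of 0.783 with an interval of 0.652 to 0.941. It did not pass over all genes (edgeR adjusted p = 0.986, unadjusted 0.01365).

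Between green and blue Cngb1 differed by 0.26 ± 0.12 (edgeR adjusted p = 0.699), and by 0.14 without green library 2. With the level of the pigment epithelium markers as a covariate the difference between blue and white was -0.40, and without white library 1, which held the highest level, it was -0.25. In other mammals the Cngb1 locus also gives rise to shorter glutamic acid-rich proteins of the rod outer segment, and a count per gene does not separate these products.

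Cnga1 stood at 149.5, 89.9 and 92.7 CPM in green, at 97.5, 85.8 and 102 CPM in blue and at 117, 61.6 and 105 CPM in white. The highest and the lowest of the 9 libraries thus differed 2.43-fold, whereas the other 8 genes differed 1.23- to 1.56-fold. Both extremes lay within pairs of libraries that share an animal label. Green libraries 1 and 2, both labelled right eye of animal 11, differed by 0.73 on the log2 scale, and the right and left eyes of white animal 6 differed by 0.93. The difference between green and white, 0.23 ± 0.23 (SE), had an interval from -0.29 to 0.74, and it came to -0.055 without green library 1. That between blue and white was 0.00 ± 0.23 and came to -0.23 without white library 2.

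The ratio of Cnga1 to Cngb1 counts varied accordingly. On the log2 scale it was 0.02, -0.99 and -0.58 under green, -0.36, -0.72 and -0.27 under blue and -0.70, -1.37 and -0.48 under white light. The lights overlapped, and the difference of 0.40 between blue and white was within the spread between libraries (exact permutation test, two-sided, p = 0.3). That of 0.33 between green and white was as well (exact permutation p = 0.5). Without white library 2 they came to 0.14 and 0.072, and without green library 1 the second came to 0.063.

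Sag encodes rod arrestin, which ends the activation of transducin. It stood at 11704, 14421 and 16743 CPM in green, at 14334, 17060.5 and 16865 CPM in blue and at 12816, 14429 and 13837 CPM in white. Blue libraries 2 and 3, from the same animal, were above all white libraries, while blue library 1 lay within the white range. The means were 16086 ± 1521 CPM in blue against 13694 ± 816 CPM in white (SD, n = 3 each). At 0.23 ± 0.12 (SE) on the log2 scale the difference failed the threshold (edgeR adjusted p = 1), and its interval ran from -0.03 to 0.49.

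Grk1 encodes the receptor kinase that starts the shutoff of the response. It stood at 2428.5, 3135 and 2860.3 CPM in green, at 2210.2, 2804 and 2549.8 CPM in blue and at 2624, 2776 and 2873 CPM in white. All 3 lights overlapped, and the log2 differences were 0.03 ± 0.11 (SE) between green and white, -0.13 ± 0.11 between blue and white and 0.16 ± 0.11 between green and blue. Rcvrn encodes recoverin, the calcium sensor that binds the kinase. It stood at 2291.5, 2823 and 2664 CPM in green, at 2608.5, 2819 and 2736 CPM in blue and at 2348, 2768 and 2508 CPM in white. The lights overlapped here as well, and of the 9 genes Rcvrn had the smallest ratio of the highest to the lowest library, 1.23.

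Most pairs of the 9 genes moved together from library to library, and Cnga1 ran opposite to some of the others. Among the 8 genes other than Cnga1, 25 of 28 pairs had a positive Pearson's r of log2 CPM over the 9 libraries, with a median of 0.48. The closest pair was Gnat1 with Pde6g (r = 0.91), and the 3 negative pairs all held Cngb1. Against Cnga1, 0 of 8 were positive, with a median of -0.54, but r was only -0.01 with Cngb1 and -0.06 with Pde6a. Without green library 1, 2 of 8 were positive and the median was -0.28. Cnga1 ran most clearly opposite to Gnat1 (r = -0.83, Spearman coefficient -0.85) and to Rcvrn (r = -0.81, Spearman coefficient -0.88). Without green library 1 and white library 2, the libraries farthest from the median of Cnga1, r was -0.81 with Gnat1 and -0.91 with Rcvrn over 7 libraries. Over the same 7, r was -0.69 with Sag, -0.57 with Pde6a, -0.54 with Pde6g (-0.79 over 9), -0.35 with Pde6b, -0.32 with Grk1 and 0.30 with Cngb1, so the opposition did not hold for all 8. These r values describe the libraries and carry no test, since they share the library scaling and the 9 libraries come from 6 animal labels.

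**Figure D3:**
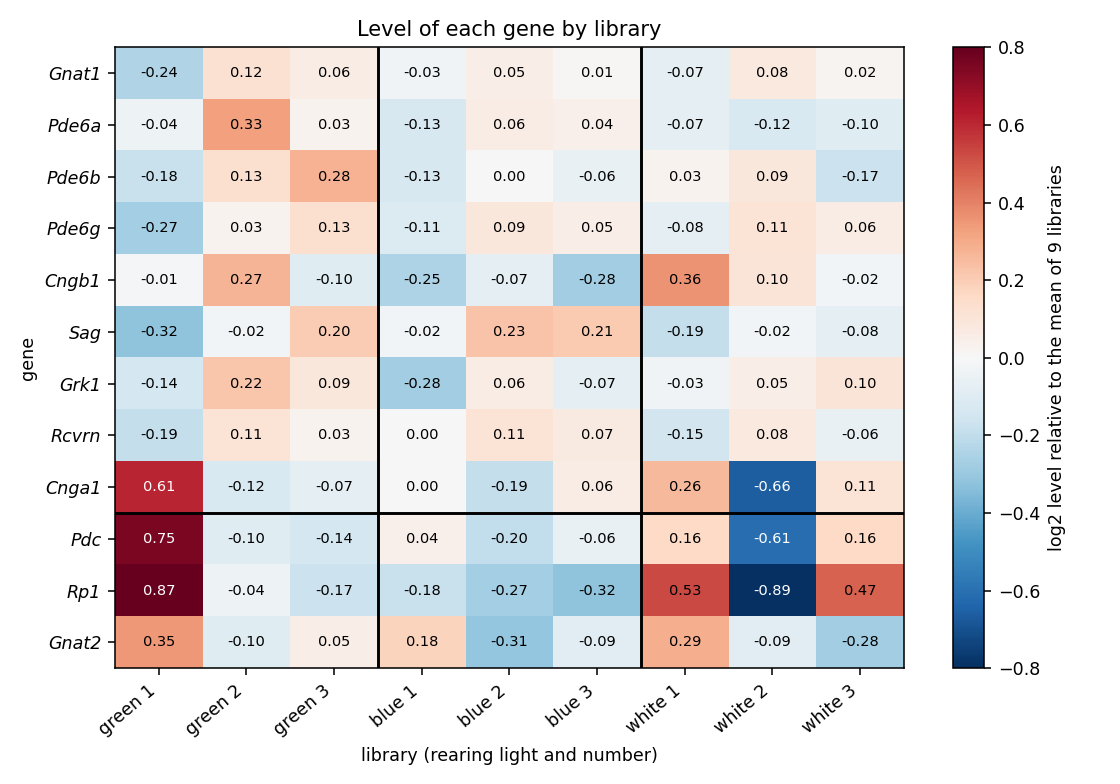
Log2 level of the 9 genes and 3 further photoreceptor genes in each library relative to the mean of the 9 libraries (columns green, blue and white, numbered 1 to 3; red higher, blue lower, colours capped at 0.8 in either direction). In green library 1 Gnat1 is at -0.24 and Cnga1 at 0.61, and in white library 2 Gnat1 is at 0.08 and Cnga1 at -0.66.

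Green library 1 held the lowest level of 5 of the 9 genes, namely Gnat1, Pde6b, Pde6g, Sag and Rcvrn, and the highest of Cnga1. Green library 2, with the same animal and eye on its label, held the highest level of 4 genes. The title of green library 1 carries the suffix -B, as does that of white library 3, and the meaning of the suffix is not given. Libraries that share an animal label were not reliably closer to each other than to the remaining library of their group. The log2 difference within the pair was compared with the mean of its differences to the remaining library. It exceeded that mean for 8 of 9 genes in green, 2 of 9 in blue and 7 of 9 in white.

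Photoreceptor genes outside the 9 lay on both sides of Cnga1, a comparison chosen after the values were seen. Of 43 tested genes in the pathway, outer segment, regulator and cone lists, 18 had a positive and 25 a negative r with Cnga1 (median -0.20, against -0.05 over all tested genes of at least 1 CPM). Without the 2 libraries farthest from its median the counts were 17 and 26. The most negative were Tulp1 (-0.90) and Aipl1 (-0.89), genes of photoreceptor protein transport and folding, and the most positive were Pdc and Rp1. Pdc encodes phosducin, a protein that binds the beta and gamma subunits of transducin. It stood at 458, 255 and 247.5 CPM in green, at 281, 237 and 261 CPM in blue and at 305, 179 and 305 CPM in white. Its r with Cnga1 was 0.97, and 0.89 without the libraries farthest from the median. Rp1, a microtubule protein of the photoreceptor cilium, stood at 360, 191 and 175 CPM in green, at 173, 163 and 157 CPM in blue and at 285, 106 and 272 CPM in white, with r = 0.92 to Cnga1 (0.75 over 7 libraries). Among 12633 genes with a symbol and at least 1 CPM, Pdc ranked 5 in likeness to Cnga1. The ranks above it were held by Kpna3, Phf20l1, Uba6 and Mkln1, none of them in the photoreceptor lists. Their r values ran from 0.975 to 0.987.

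**Figure D4:**
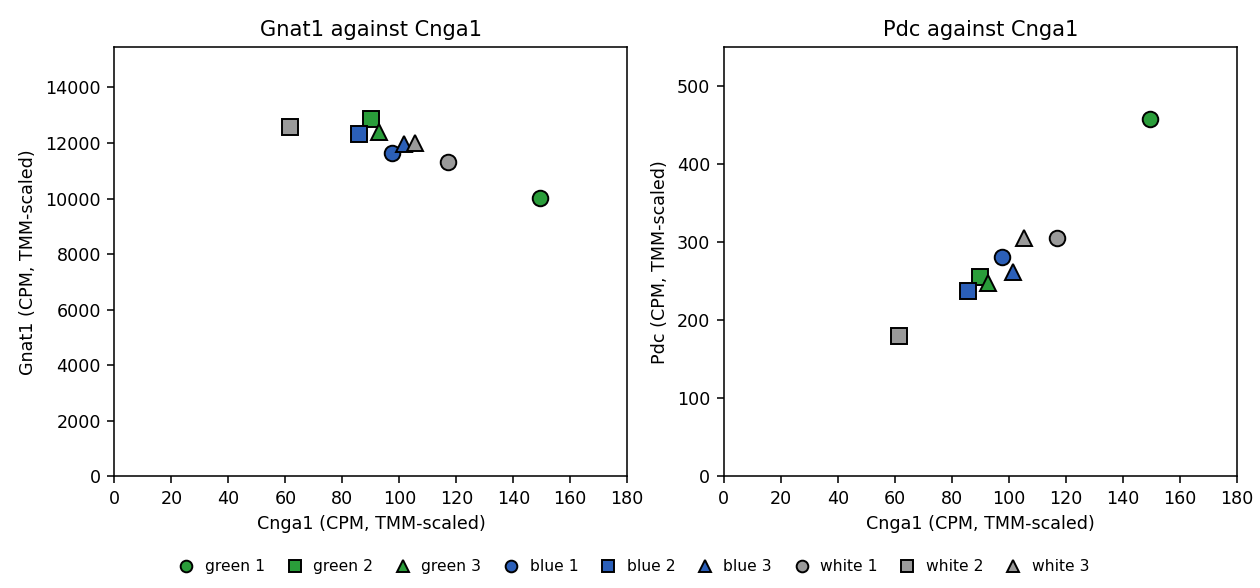
Gnat1 (left) and Pdc (right) against Cnga1, each in CPM (TMM-scaled, axes from 0), for the 9 libraries; colour gives the light and shape the library number. Gnat1 is lowest in green library 1, where Cnga1 is at 149.5 CPM, and Pdc is highest there at 458 CPM and lowest in white library 2 at 179 CPM.

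Likeness to the mean profile of all 9 was ranked over the 9 libraries and 12625 genes with a symbol and at least 1 CPM. The closest were Klhl18 (r = 0.975), Med20 (0.973), Cbarp (0.944), Susd3 (0.942) and Ankrd39 (0.942). They were followed by Syngr1 (0.94), Nfkb1 (0.938), Dhdh (0.937), Susd4 (0.932) and Sarm1 (0.931). With so many genes and 9 libraries these are the extremes of a long ranking. Library-to-library spread was above that of most genes of at least 100 CPM for 7 of the 9. The coefficient of variation over the 9 libraries was 7.12% for Gnat1, 15.2% for Cngb1 and 24% for Cnga1. The median over the 9 genes was 10.5%, against 7.73% for the 2236 genes of at least 100 CPM. Of those, 98.1% varied less than Cnga1, 92.3% less than Cngb1 and 88.3% less than Sag. For Pde6b, Pde6a, Grk1 and Pde6g the share was 61.8% to 82.6%, for Rcvrn 47.5% and for Gnat1 40.4%.

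The rest of the rod pathway gave no call either. Of 13 tested genes listed with the cascade, 8 were higher and 5 lower in green than in white, 7 and 6 in blue than in white, and 7 and 6 in green than in blue; edgeR called 0 and DESeq2 0 in each. At an unadjusted p of 0.05 stood 0, 1 and 0 of them. The 1 was Gngt1, the gamma subunit of rod transducin, at 268, 176 and 202 CPM in blue and at 187, 160.5 and 169 CPM in white. The lights overlapped, and the log2 difference of 0.32 ± 0.14 (SE; edgeR adjusted p = 1) came to 0.14 without blue library 1, the highest. Gnb1, the beta subunit, stood at 7582 ± 901 CPM in green, 7955 ± 237 CPM in blue and, in white, 7173 ± 401 CPM. Each blue library was above each white one, as for 5.76% of all genes. The log2 difference of 0.15 ± 0.09 (SE) did not reach even an unadjusted p of 0.05 (edgeR unadjusted p = 0.1183). Rgs9, part of the complex that shuts transducin off, stood at 333, 422 and 325 CPM in green and at 328, 284 and 322 CPM in white. For Rgs9 the lights overlapped, and the log2 difference of 0.21 ± 0.11 (SE, edgeR adjusted p = 0.877) came to 0.08 without green library 2. Guca1a and Guca1b, which activate the cyclase that restores cyclic GMP, and Slc24a1, the exchanger that extrudes calcium from the outer segment, differed from white by between -0.11 and 0.08 on the log2 scale in both coloured lights.

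Of 10 outer segment genes, 5 were higher and 5 lower in green than in white, 3 and 7 in blue than in white, and 5 and 5 in green than in blue; edgeR and DESeq2 called 0, and 0 stood at an unadjusted p of 0.05. Prph2, the disc rim protein peripherin, stood at 3384 ± 499 CPM in green, 3464 ± 351 CPM in blue and, in white, 3554 ± 219 CPM. Its partner Rom1 stood at 321 ± 35.4 CPM in green, 334 ± 26.7 CPM in blue and, in white, 316 ± 29.4 CPM.

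Among 9 photoreceptor transcriptional regulators edgeR called 0 in each comparison and DESeq2 0, 1 and 0, with 2 of 9 at an unadjusted p of 0.05 in each of the 3. Nrl, which specifies rods, stood at 2853 ± 262 CPM in green, 2857.5 ± 194 CPM in blue and, in white, 2872 ± 211 CPM. Crx, an activator of rod and cone genes, differed by 0.05 ± 0.09 (SE) between green and white and by -0.09 ± 0.09 between blue and white. Nr2e3, which represses cone genes in rods and acts with Nrl on rod genes, stood at 364.5, 505 and 526 CPM in green, at 406, 482 and 433 CPM in blue and at 345, 346 and 318 CPM in white. Each green and each blue library was above each white one, separations that 5.34% and 5.76% of all genes showed. The log2 differences of 0.47 ± 0.13 (SE) and 0.39 ± 0.13 did not pass (edgeR adjusted p = 0.768 and 0.968). Samd7, a photoreceptor repressor protein, stood at 36.6, 32.7 and 31.7 CPM in green, at 20, 22.4 and 24.6 CPM in blue and at 44.8, 30.8 and 31.3 CPM in white. Each blue library was below each white one, as for 4.14% of all genes, and below each green one (7.23% of all genes). Between blue and white DESeq2 called Samd7 (adjusted p = 0.0144) and edgeR did not (adjusted p = 0.656).

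The cone counterparts served as the parallel cascade. Of 11 tested genes, 6 were higher and 5 lower in green than in white, 4 and 7 in blue than in white, and 6 and 5 in green than in blue, with 0 called in edgeR and 1, 0 and 0 in DESeq2. At an unadjusted p of 0.05 stood 1, 0 and 1 of them, in each case Cngb3, a subunit of the cone channel. It stood at 58.9, 49.1 and 51.3 CPM in green, at 40.8, 25.5 and 36.6 CPM in blue and at 36.1, 25 and 33.6 CPM in white. The green libraries lay above all the others. Of all genes, 5.34% were higher in green than in white without overlap, and 7.23% higher than in blue. DESeq2 called the difference of Cngb3 between green and white (log2 0.75, adjusted p = 0.0184), which edgeR did not (adjusted p = 0.703). Its rod relative Cngb1 was at -0.09 ± 0.12 (SE) in the same comparison. Cnga3, the other cone channel subunit, stood at 33.3 ± 2.24 CPM in green, 33.4 ± 1.15 CPM in blue and, in white, 36.9 ± 1.56 CPM. Each blue library was below each white one, as for 4.14% of all genes. Green barely separated from white, since the highest green and the lowest white library both stood at 35.2 CPM. Of all genes, 4.74% were lower in green without overlap. Neither difference passed (edgeR adjusted p = 0.913 for green and 1 for blue).

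Among the cone enzymes, Pde6c, the catalytic subunit of cone PDE6, stood at 72.1 ± 16.5 CPM in green, 54.8 ± 3.76 CPM in blue and, in white, 67.4 ± 17.7 CPM. Pde6h, its inhibitory subunit, stood at 738 ± 65.8 CPM in green, 785 ± 137.5 CPM in blue and, in white, 869.9 ± 113 CPM. Grk7, a receptor kinase of cones, stood at 126.5 ± 24.6 CPM in green, 139.7 ± 7.66 CPM in blue and, in white, 132 ± 28.9 CPM.

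The rod and cone transducin alpha subunits were compared as a ratio, which covers Gnat1 and Gnat2 only. The cone genes did not move together: their r to the mean profile of the 9 genes ran from -0.616 (Gnat2) to 0.725 (Gngt2). A ratio with another cone gene could therefore differ. The ratio of Gnat1 to Gnat2 counts was 35.1, 61.4 and 53.7 under green, 45.9, 68.2 and 57 under blue and 41.5, 59.8 and 65 under white light. The lights overlapped, and the spread within a light was larger than any difference between lights. On the log2 scale the means were 5.61 ± 0.42 in green, 5.81 ± 0.29 in blue and 5.77 ± 0.34 in white (SD, n = 3 each). The difference between green and white was -0.16 (exact permutation test, two-sided, p = 0.6), that between blue and white 0.05 (exact permutation p = 0.8) and that between green and blue -0.21 (exact permutation p = 0.6). The adjusted p over the 9 ratio tests was 0.9, 1 and 0.9 for these 3.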

How the data were processed

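Retinal RNA was sequenced as paired-end reads on an Illumina HiSeq 2500, per the labels' protocols. The authors deposited whole-number counts per gene for 9 libraries, per the file headers. For the aligner, counter, strand setting, build and annotation: not given in the sources used here. Counts of 4 occur 2014 times and counts of 3 occur 472 times, so a unit may not be a single fragment; the fits were repeated with counts divided by 4.

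Columns were matched to samples by title, and library numbers follow deposition order and pair nothing across groups. Blue library 1 (label 2R-23) and white library 3 (R-23) were taken as different animals. Low genes were removed by filterByExpr (minimum count 10, minimum total 15), leaving 15469. The edgeR model (edgeR 4.0.16, limma 3.58.1, R 4.3.3) used TMM scaling and the light as its only term, with a common biological coefficient of variation of 17.68%. All 9 members passed the filter. Each SE is the absolute log2 difference over the square root of F. DESeq2 1.42.0 was an alternative. The edgeR step was run on simulated independent libraries, which cannot show how the p-values behave when libraries share an animal label. A count of 0 allows 0.0385 to 0.0483 CPM (a limit of 3 counts per library, counting error only).

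Members and lists were chosen with earlier results of these data known. All 9 members are described; of the pathway, outer segment, regulator and cone lists a fixed set of genes is given where tested, and Samd7, Rp1 and the genes like Cnga1 were added after their values were seen. Likeness was Pearson's r of log2(CPM + 1) to the mean of the members' standardized levels, and the 10 highest of at least 1 CPM are named. Genes known only by a locus number were left out of the likeness rankings. Levels of different genes are not ranked, since transcript lengths were not used here. A gene of the pathway list and the scaling that used it are not reported here.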

Additional observations from a re-analysis of the deposited data

How the results depend on the processing

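The count of members called remained 0 in each comparison under all 17 or 18 alternatives: DESeq2's size factors, upper-quartile scaling, no filter, DESeq2's test, the 6 libraries alone (not for the joint test), counts summed per animal label, no -B libraries, the pigment epithelium covariate, counts divided by 4, and leaving out each library. The smallest adjusted p of any member over these was 0.491. No paired analysis was possible because the labels give no replicate numbers shared between groups. The pseudocount alternative was not run, as the table holds counts.

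Of the members' log2 differences under an alternative, 438 kept their sign and 48 reversed, all of them uncalled; the cause was not tested. Without the -B libraries, Gnat1 came to 0.074 and Pde6g to 0.052 between green and white, Gnat1 to -0.007 between blue and white, and Gnat1 to 0.081, Pde6g to 0.071, Cnga1 to -0.051 and Rcvrn to 0.016 between green and blue. With the covariate, Gnat1 came to 0.019 between green and white, -0.027 between blue and white and 0.046 between green and blue, where Cnga1 came to -0.103 and Rcvrn to 0.026. Between blue and white, Gnat1 and Cnga1 came to -0.002 and -0.003 with upper-quartile scaling, -0.006 and -0.004 with no filter and -0.008 and -0.027 with sums per animal label, under which Pde6g came to 0.021 between green and blue.

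Leaving out single libraries, the ranges that crossed 0 between green and white were -0.093 to 0.075 for Gnat1, -0.15 to 0.042 for Pde6g, -0.01 to 0.218 for Pde6b, -0.055 to 0.404 for Cnga1, -0.209 to 0.014 for Cngb1, -0.073 to 0.182 for Sag, -0.061 to 0.116 for Grk1 and -0.037 to 0.106 for Rcvrn. Between blue and white they were -0.046 to 0.039 for Gnat1, -0.133 to 0.001 for Pde6b, -0.084 to 0.035 for Pde6g and -0.228 to 0.176 for Cnga1. Between green and blue they were -0.096 to 0.081 for Gnat1, -0.121 to 0.071 for Pde6g, -0.051 to 0.352 for Cnga1 and -0.135 to 0.016 for Rcvrn. Ranges that kept their sign but moved over 1.5 times included 0.143 to 0.335 for Cngb1, 0.004 to 0.197 for Pde6a, 0.05 to 0.278 for Pde6b, 0.069 to 0.254 for Grk1 and -0.297 to -0.041 for Sag between green and blue, 0.094 to 0.278 for Pde6a between green and white, and 0.056 to 0.148 for Pde6a, -0.213 to -0.043 for Grk1 and 0.034 to 0.164 for Rcvrn between blue and white.

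Of the log2 ratios, Gnat1 to Gnat2 ranged from -0.356 to 0.077 between green and white, -0.147 to 0.197 between blue and white (-0.084 with sums per animal label) and -0.376 to 0.028 between green and blue. Between green and blue, Pde6a to Pde6b ranged from -0.107 to 0.115 and Cnga1 to Cngb1 from -0.337 to 0.169, which ranged from 0.063 to 0.568 between green and white and 0.14 to 0.586 between blue and white. Each member had 4267 counts or more per library, and the part of depth in the spread between libraries was not tested.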
